A study of Homo sapiens with 6 samples.

Results

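The DEAD and DEAH box RNA helicases are enzymes that use ATP to unwind or remodel RNA and RNA-protein complexes, and they are named for the amino acids (Asp-Glu-Ala-Asp or Asp-Glu-Ala-His) of a motif in the helicase core. DEAD box enzymes mostly open short duplexes locally, whereas DEAH box enzymes mostly move along an RNA strand and pull it out of a complex. Between them they act on ribosome assembly in the nucleolus, on the spliceosome, on mRNA export through the nuclear pore, on translation and decay, and in the sensing of viral RNA. DDX21 is a nucleolar member that also acts on RNA polymerase II genes, and it drew the attention of the study as a binding partner of PRL3.

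The genes were chosen by name: every protein-coding gene with a symbol starting DDX or DHX and a digit, which gave 54 members (38 DDX and 16 DHX symbols) among 58243 gene identifiers. RNA made during a short pulse was measured in A375, a human melanoma cell line, which had been stably transfected either with an empty vector (EV, libraries B1, B2 and B3) or with a plasmid for human PRL3 (libraries B9, B10 and B11). PRL3, also called PTP4A3, is a phosphatase linked to metastasis, and the study gives its transgene an HA tag. Both lines were kept in 100 µg/ml hygromycin B and were given 500 µM 4-thiouridine (4sU) for 20 min, after which the 4sU-labelled RNA was purified, cleared of ribosomal RNA and sequenced. The labels do not say whether either line is a clone or a pool, nor that the 3 libraries of a line came from separate cultures. The p-values therefore measure only the spread between these libraries.

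The libraries held 36532207 to 57952035 counts on genes. Normalized counts of PTP4A3 were 161, 212 and 279 in EV and 22324, 28767 and 22062 in PRL3 cells, so the libraries matched their labels. Uniquely aligned reads outside annotated exons of the expected strand made up 28.7% to 41.1% in EV and 62.8% to 69.1% in PRL3 libraries. Reads that fell on exons of more than 1 gene made up 4.46% to 5.01% and 1.67% to 2.53%. Of 8 melanocyte markers, SOX10 and S100B were lower in PRL3 cells, MITF and PMEL were not called, and MLANA, TYR, TYRP1 and DCT had at most 20 counts in any library. MITF lay higher in every PRL3 library than in any EV library (log2 fold change 0.36, edgeR adjusted p = 0.0738). The summed level of the 8 was 23490 to 32805 normalized counts in EV and 13529 to 16937 in PRL3 libraries. Most of that sum was SOX10, with means of 22799 in EV and 12611 in PRL3 libraries. Of 3 markers of dedifferentiated melanoma, AXL and NGFR were lower and EGFR was not called. Of 4 markers of other cell types, EPCAM, PTPRC and PECAM1 had at most 21 counts in any library, whereas KRT14, a keratin of basal epithelium, was present at 1083 to 1217 normalized counts in EV and 352 to 614 in PRL3 cells. The part of these marker differences in the results was not tested. In these bulk samples, fewer cells that make an RNA and less RNA made per cell cannot be told apart. The study turned to intronic reads for its later analysis, to remove possible effects of splicing during transcription and of low-level mRNA carry-over. The part of either in the counts on exons used here was not tested.

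DDX21 and its closest relative DDX50 lie side by side on chromosome 10, on the plus strand of GRCh38, with 9287 bases between the end of DDX50 and the start of DDX21. DDX50 spans 68901286 to 68946847 and DDX21 spans 68956135 to 68985068. Their promoters are shown because the DDX21 and DDX50 counts are compared below as neighbours and paralogs. Each window holds 250 bases before and 50 bases after the transcript start of RefSeq (GRCh38.p14), printed 5′ to 3′ on the plus strand, and capitals mark matches to the 4 motifs searched.
DDX21, chr10:68955920-68956219: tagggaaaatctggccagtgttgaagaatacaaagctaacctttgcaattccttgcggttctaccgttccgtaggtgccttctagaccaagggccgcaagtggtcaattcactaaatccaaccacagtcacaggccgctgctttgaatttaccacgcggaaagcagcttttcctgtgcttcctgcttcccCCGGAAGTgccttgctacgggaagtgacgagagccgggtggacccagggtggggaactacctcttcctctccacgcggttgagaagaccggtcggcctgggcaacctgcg
DDX50, chr10:68901065-68901364: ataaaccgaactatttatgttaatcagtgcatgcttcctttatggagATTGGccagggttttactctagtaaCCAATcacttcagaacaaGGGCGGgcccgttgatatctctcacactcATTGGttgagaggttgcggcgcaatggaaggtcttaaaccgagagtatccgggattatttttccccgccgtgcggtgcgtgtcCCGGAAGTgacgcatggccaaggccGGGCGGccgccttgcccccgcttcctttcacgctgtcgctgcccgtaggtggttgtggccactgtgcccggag
Both windows held CCGGAAGT, the core bound by ETS factors. The DDX50 window also held GGGCGG (the GC box) and CCAAT or its complement, which the DDX21 window did not.

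The 4 motifs were searched on both strands in the 49 members with a promoter in the table and in all 35116 promoters there. For each member only the promoter nearest its canonical start was used. The 35116 were not selected by gene type or expression, so the sets compared are unlike. CCGGAAGT (ACTTCCGG on the other strand) was found in 10 of 49 members (20.4%) and in 4.14% of all promoters. The members with it were DDX21, DDX27, DDX39B, DDX47, DDX50, DDX56, DHX8, DHX30, DHX34 and DHX37. CACGTG, the E-box that MITF and related factors bind, was found in 8 of 49 (16.3%) and in 7.26% of all promoters. CCAAT, with ATTGG as its complement, was found in 46.9% of members and 34.6% of all promoters. GGGCGG was found in 55.1% and 45.0%, counting CCGCCC on the other strand. A match is a description of letters and not a bound site. Of the 8 members with an E-box, DDX54, DHX32 and DHX40 were lower and DDX31 was higher in PRL3 cells, beside 14 lower and 6 higher of the 49 members with a promoter and 31.6% lower and 15.2% higher of tested protein-coding genes. The sites of these 4 are shown in capitals with flanking bases because MITF is the factor the study follows.
DDX54, minus strand, chr12:113185522-113185551: ctcagcggaggtCACGTGgtcaccgcacct
DHX32, minus strand, chr10:125881390-125881419: ggattaggtgacCACGTGattgattagcct
DHX40, plus strand, chr17:59565448-59565477: caaggcgaagcgCACGTGgcagttggcggg
DDX31, minus strand, chr9:132669988-132670017: cctcgcgcgtccCACGTGgggtcccgggcc
The motif began 61, 115, 150 and 22 bases before the RefSeq transcript start used for these genes, in that order. For DHX32 the window (125881243 to 125881542) lies inside the gene, which spans 125836337 to 125896436. The start used for DHX32 is therefore not its outermost one, and no limit was set on the distance to the canonical start.

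The first question was whether helicase genes as a whole were labelled at another level in PRL3 cells. Of the 54 members, 50 had enough reads to be tested, and the other 4 (DDX3Y, DDX4, DDX43 and DDX53) had at most 6 reads in any library. Of the 50, 16 were lower in PRL3 cells (32%), 6 were higher (12%) and 28 were not called, by the edgeR quasi-likelihood test with Benjamini-Hochberg adjustment over 23884 genes and a threshold of 0.05. The background among the 14443 tested protein-coding genes was 31.6% lower and 15.2% higher, and among all genes tested it was 22.7% lower and 20.0% higher. The members' shares were thus close to those of protein-coding genes, and give no result particular to helicases. The median log2 fold change of the members was −0.21, beside −0.15 for protein-coding genes and 0.11 for all genes tested. In 18 members all PRL3 libraries were below all EV libraries, and in 8 they were above, which held for 36.8% and 22.1% of protein-coding genes. For all genes these shares were 26.6% and 29.7%.

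All 6 higher members were DDX genes. Of 34 tested DDX genes, 10 were lower (29.4%) and 6 higher (17.6%), with a median log2 fold change of −0.19. Of 16 tested DHX genes, 6 were lower (37.5%) and 0 higher, with a median of −0.29. The background of protein-coding genes was 31.6% lower and 15.2% higher. At an unadjusted p under 0.05 (edgeR), 1 DHX gene was higher, and DESeq2 and limma-voom called 0 higher, whereas scaling by library size alone gave 5 higher. The difference between the DDX and DHX genes was not tested. The plot of fold changes by role shows members on both sides of 0 in every role but mitochondrial and germline.

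**Figure D1:**
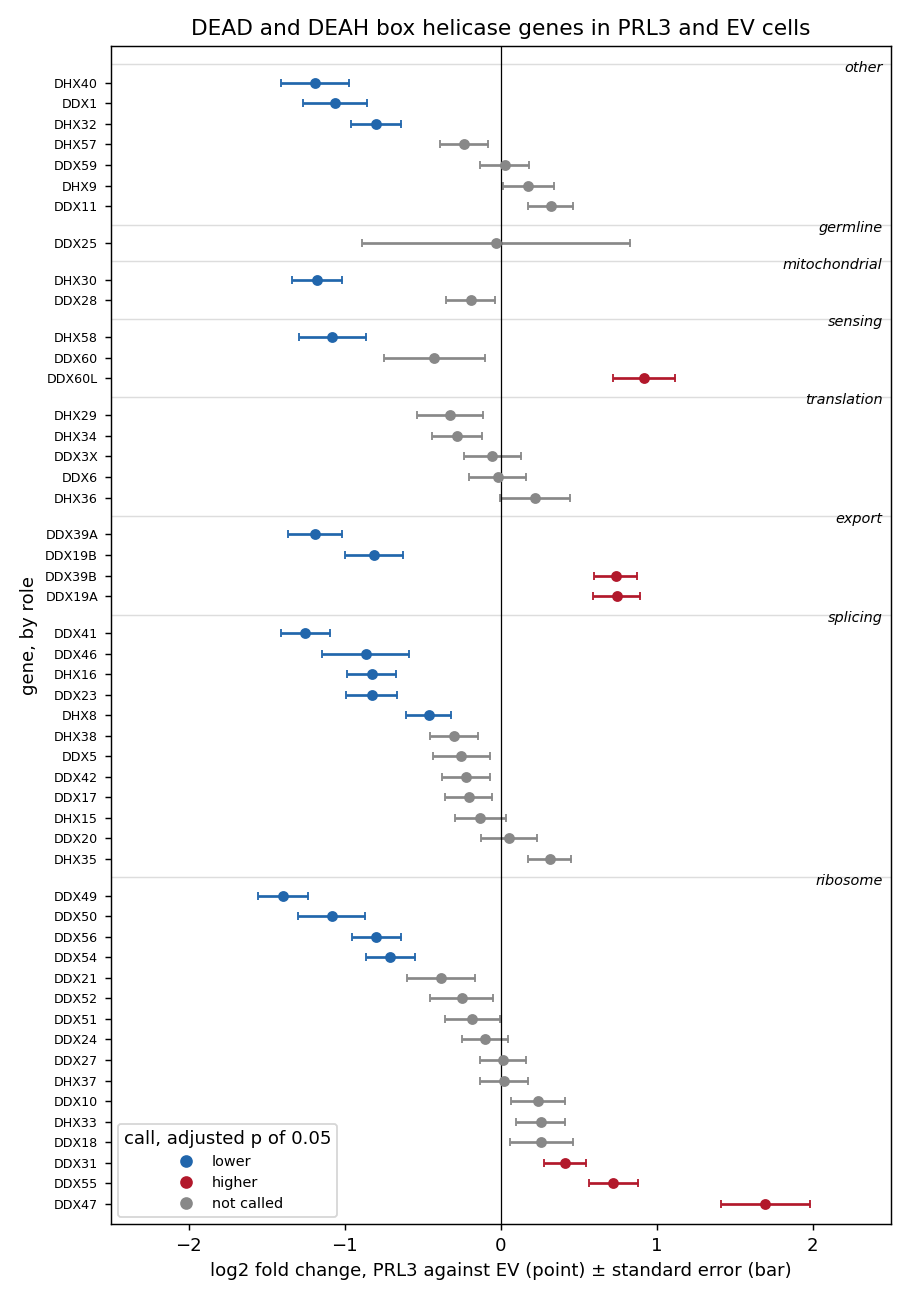
Log2 fold change of the 50 tested helicase genes in PRL3 against EV cells (horizontal axis, point) with its standard error (bar), grouped by role, with 3 libraries per line. Blue genes were lower, red genes higher and grey genes not called at an adjusted p of 0.05, and DDX21 lies in the grey middle of the ribosome group at −0.38.

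The directions depended in part on how the libraries were scaled. The counts were also scaled in 4 other ways, by RLE factors, by the upper quartile, by library size alone and by all uniquely aligned reads. Of the 16 lower members, 8 remained lower under all 4: DDX1, DDX39A, DDX41, DDX49, DDX50, DHX30, DHX40 and DHX58. Of the 6 higher members, only DDX47 remained higher under all 4. The same 9 genes also kept their call under each of the 16 alternatives run, those that leave out 1 library included. Under library size alone, 8 members were lower and 20 higher, and under all uniquely aligned reads 32 were lower and 1 was higher. The median of all genes tested moved with it, from 0.11 to 0.60 and to −0.36. The median of the members lay below that of all genes by 0.32 and 0.33 on the log2 scale, as in the reported fit, where it lay 0.32 below. Scaling moves all genes by nearly the same amount, so a gap that stays alike under it is no support for the gap. In the fit of protein-coding genes only, the members' median minus that of the genes tested was −0.06. Without EV B1 the members' median minus that of all genes was −0.20.

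**Figure D2:**
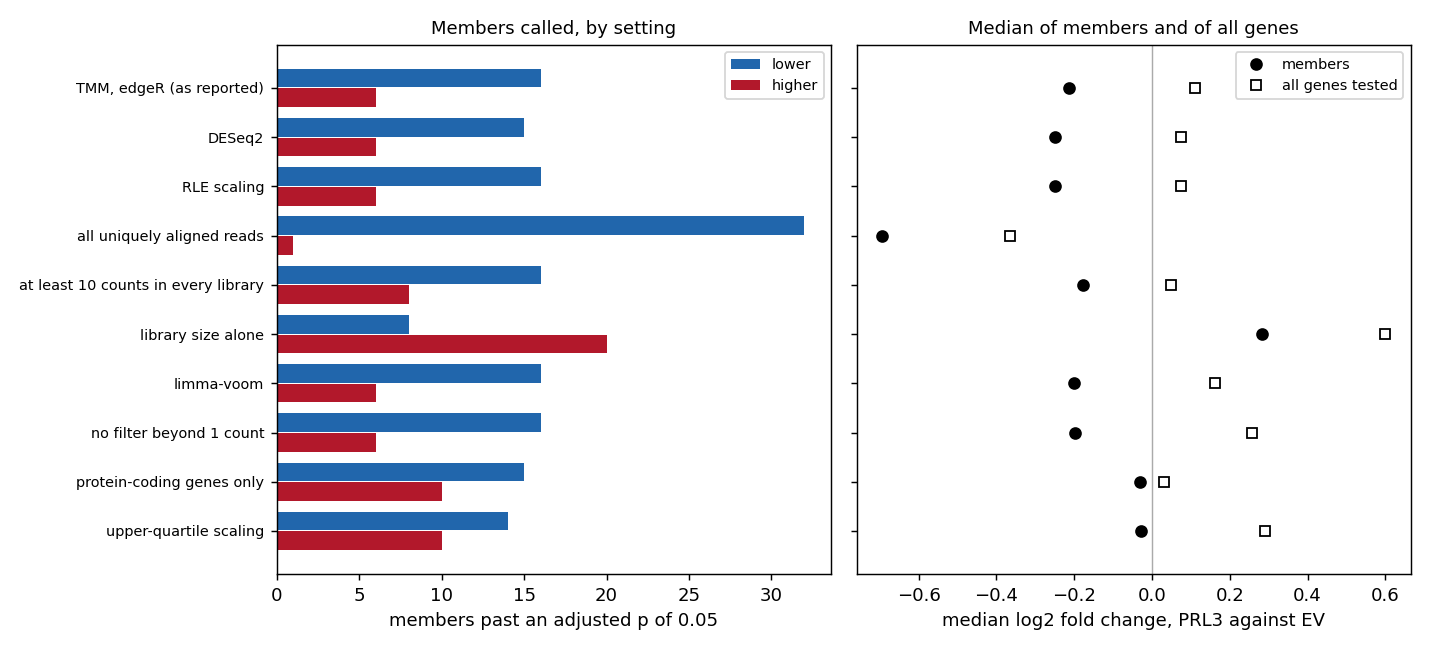
Left, the number of helicase genes called lower (blue) or higher (red) in PRL3 cells under each setting, with 0.05 as the limit for the adjusted p. Right, the median log2 fold change of the members (filled circles) and of all genes tested (open squares), which move together from −0.69 and −0.36 under all uniquely aligned reads to 0.28 and 0.60 under library size alone.

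DDX21 was one of the more abundant members and was not called. Its normalized counts were 20318, 10624 and 11391 in EV libraries and 10262, 10699 and 11465 in PRL3 libraries. EV B1 stood apart at 1.85 times the mean of the other two EV libraries, and the latter overlapped with the PRL3 libraries. The log2 fold change was −0.38 (SE 0.22, edgeR quasi-likelihood adjusted p = 0.173), the 18th lowest of 50. Without EV B1 it was −0.03 (edgeR adjusted p = 0.905). Scaled by all uniquely aligned reads DDX21 was lower (log2 fold change −0.87, edgeR adjusted p = 0.00765), and scaled by library size alone its value was 0.12 (edgeR adjusted p = 0.652).

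The share of DDX21 among helicase counts does not depend on the scaling. It was 4.58%, 2.96% and 3.21% of the counts of all members in EV libraries and 3.37%, 3.24% and 3.56% in PRL3 libraries. The means were 3.58% ± 0.87 (SD, n = 3) and 3.39% ± 0.16 (SD, n = 3), with p = 1 in a two-sided exact permutation test, whose smallest p for 3 against 3 is 0.1. All members together took 0.773%, 0.621% and 0.674% of the counts on genes in EV and 0.809%, 0.785% and 0.812% in PRL3 libraries, and these did not overlap (two-sided exact permutation p = 0.1). That share equals scaling by library size alone. On the TMM scale the direction was the opposite, as the summed normalized counts of all members were 354991 to 443949 in EV and 304360 to 330101 in PRL3 libraries, again without overlap.

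Per length, DDX21 ranked in the upper part of the family in both lines. It had 1522 ± 581 normalized counts per kb of exons in EV (SD, n = 3) and 1165 ± 65.7 in PRL3 cells (SD, n = 3), which put it 11th and 12th of the members. The EV order was led by DDX39A (5486 ± 302 per kb), DDX5 (4704 ± 1054), DHX9 (4498 ± 858), DDX56 (3608 ± 389) and DDX49 (3414 ± 465). The first 3 lay within 1 SD of a neighbour, as did DDX56 and DDX49. In PRL3 cells the order was led by DHX9 (5090 ± 139 per kb), DDX5 (3949 ± 448), DDX39A (2402 ± 522), DDX56 (2075 ± 263) and DHX15 (1951 ± 152). DDX21's neighbours DDX41 (1669 ± 86.1) and DDX46 (1479 ± 818) did not differ from it beyond their spread in EV. DDX41 dropped from 10th to 26th place and DHX30 from 7th to 20th, whereas DDX31 went from 24th to 14th and DDX39B from 29th to 15th.

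DDX50, the nucleolar paralog of DDX21, was lower in PRL3 cells. Its normalized counts were 2278, 1652 and 1327 in EV and 656, 900 and 925 in PRL3 libraries, with no overlap. The log2 fold change was −1.08 (SE 0.22, edgeR quasi-likelihood adjusted p = 0.00131), which left 47.2% of the EV level. The ratio of DDX21 to DDX50 counts within a library was 8.92, 6.43 and 8.59 in EV and 15.6, 11.9 and 12.4 in PRL3 libraries. Its means were 7.98 ± 1.35 and 13.3 ± 2.04 (SD, n = 3 each), a 1.67-fold difference with a two-sided exact permutation p of 0.1, the smallest that 3 against 3 allows. The ratio needs no scaling between libraries, and without any 1 library the difference lay between 1.52-fold and 1.77-fold.

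With DDX21 and DDX50 included, 4 of the 16 ribosome assembly helicases were lower (25%) and 3 higher (18.8%), beside 31.6% and 15.2% of protein-coding genes, and the median log2 fold change was −0.04. DDX49, an enzyme of rRNA processing, had the lowest log2 fold change of all members. Its normalized counts were 10505, 13059 and 10298 in EV and 4061, 4882 and 3905 in PRL3 libraries (log2 fold change −1.40, SE 0.16, edgeR adjusted p = 2.65e-05). No PRL3 library reached the lowest EV library. DDX56 (−0.80) and DDX54 (−0.71), both nucleolar proteins of large-subunit assembly, were also lower, by edgeR adjusted p = 0.00116 and 0.00282. Scaled by library size alone, neither was called.

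DDX47, which acts on the precursor of the small-subunit rRNA, had the highest log2 fold change. Its normalized counts were 358, 221 and 612 in EV and 1299, 1245 and 1337 in PRL3 libraries (log2 fold change 1.70, SE 0.29, edgeR adjusted p = 0.000398). The groups did not overlap, and the EV libraries were more spread than the PRL3 libraries. DDX55, a factor of large-subunit assembly, had 4189, 3212 and 4108 in EV and 6888, 6449 and 5666 in PRL3 libraries (0.72, SE 0.16, edgeR adjusted p = 0.0024). DDX31, a nucleolar protein, had a log2 fold change of 0.41 (edgeR adjusted p = 0.0245), which did not pass without any 1 of the 3 PRL3 libraries and turned to −0.064 when scaled by all uniquely aligned reads. That scaling also left DDX55 uncalled. Apart from DDX21, the 8 ribosome members that were not called (DDX10, DDX18, DDX24, DDX27, DDX51, DDX52, DHX33 and DHX37) lay between −0.25 and 0.26.

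Among the 12 splicing helicases, 5 were lower, 0 were higher, and 10 had a log2 fold change below 0 (median −0.28). DESeq2 called 4 lower and limma-voom 5, and neither called any higher, while at an unadjusted p under 0.05 (edgeR) 1 was higher. The share of lower genes was 41.7%, against 31.6% of protein-coding genes, and that difference was not tested. DDX41, a spliceosome protein whose inherited mutations predispose to myeloid neoplasms, had 6970, 7334 and 6615 normalized counts in EV and 2703, 3468 and 2599 in PRL3 libraries (log2 fold change −1.25, SE 0.16, edgeR adjusted p = 4.44e-05). DDX23, which helps to form the active spliceosome, and DHX16, which starts the first catalytic step, each had −0.83 (edgeR adjusted p = 0.00117 and 0.000938). DHX8, which releases the spliced mRNA, had −0.46 (edgeR adjusted p = 0.0194), and it was not called without EV B2 or without PRL3 B11 and turned to 0.036 when scaled by library size alone. Under that scaling DDX41 alone of the 5 remained lower, and 2 splicing helicases were higher.

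DDX46, which acts at branch site recognition, owed much of its difference to 1 library. Its normalized counts were 22308, 8956 and 9592 in EV and 7950, 6886 and 7596 in PRL3 libraries, so that EV B1 was 2.41 times the mean of the other two EV libraries. The log2 fold change was −0.86 (SE 0.28, edgeR adjusted p = 0.0237) with EV B1 and −0.31 (edgeR adjusted p = 0.105) without it. It also missed the threshold without any 1 of the 3 PRL3 libraries, with edgeR adjusted p from 0.0608 to 0.0764, under DESeq2 (adjusted p = 0.101) and under upper-quartile scaling (edgeR adjusted p = 0.0533). The call held in 8 of 16 alternatives.

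The best-known splicing helicases were not called. DDX5, which is also a coregulator of transcription, had 54460, 35130 and 41803 normalized counts in EV and 32023, 38397 and 39876 in PRL3 libraries (log2 fold change −0.25, edgeR adjusted p = 0.287). Its partner DDX17 had 19505, 16509 and 15567 in EV and 14037, 14829 and 15894 in PRL3 libraries (−0.20, edgeR adjusted p = 0.297). DHX15, which takes apart spent spliceosomes, had 20834, 15272 and 16186 in EV and 14509, 16485 and 16808 in PRL3 libraries (−0.13, edgeR adjusted p = 0.553). In all 3 genes the groups overlapped and EV B1 was the highest library.

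Highest in this role were DHX35, a protein of the catalytic spliceosome, and DDX20, a subunit of the SMN complex. DHX35 had 3057, 2833 and 2825 normalized counts in EV and 3580, 3616 and 3642 in PRL3 libraries. These did not overlap, but the log2 fold change of 0.31 missed the threshold (edgeR adjusted p = 0.082). DDX20 had 3201, 1977 and 2496 in EV and 2450, 2603 and 2916 in PRL3 libraries (0.055, edgeR adjusted p = 0.833). DHX38, another step-specific enzyme, and DDX42, a partner of the branch site machinery, lay at −0.30 and −0.22 and were not called.

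The 4 mRNA export helicases fell into opposite pairs, with 2 lower and 2 higher. Of protein-coding genes, 31.6% were lower and 15.2% higher. DDX39A and DDX39B are near-identical proteins that load export factors on spliced mRNA. DDX39A had 21625, 22058 and 19859 normalized counts in EV and 7878, 11582 and 8359 in PRL3 libraries (log2 fold change −1.19, SE 0.17, edgeR adjusted p = 0.000126). DDX39B had 4317, 4693 and 4971 in EV and 7839, 7810 and 7648 in PRL3 libraries (0.74, SE 0.14, edgeR adjusted p = 0.00091). The groups did not overlap in either gene, and the ratio of DDX39A to DDX39B counts was 4.57 ± 0.52 in EV and 1.19 ± 0.25 in PRL3 libraries (SD, n = 3 each).

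DDX19A and DDX19B, paralogs that strip export factors from mRNA at the nuclear pore, lie next to each other on chromosome 16 (GRCh38, 70346861 to 70373383 and 70289663 to 70335305, plus strand). DDX19A had 1113, 1144 and 1145 normalized counts in EV and 2005, 1903 and 1786 in PRL3 libraries (log2 fold change 0.74, SE 0.15, edgeR adjusted p = 0.00142). DDX19B had 955, 1023 and 861 in EV and 597, 574 and 443 in PRL3 libraries (−0.81, SE 0.19, edgeR adjusted p = 0.00329). The ratio of DDX19A to DDX19B counts was 1.20 ± 0.11 in EV and 3.57 ± 0.40 in PRL3 libraries (SD, n = 3 each). Scaled by all uniquely aligned reads, DDX39B and DDX19A were not called, and scaled by library size alone DDX19B was not. Reads that align to both genes of so similar a pair can be lost to either, which makes the counts of both pairs less certain.

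In all, 5 pairs of related genes were compared by their count ratio. DDX21 with DDX50 was picked as neighbour and closest relative, but the members were chosen with earlier results of these data known. The p-values of all 5 pairs therefore describe these libraries and are not a test. For 4 pairs (DDX21:DDX50, DDX19A:DDX19B, DDX39A:DDX39B and DDX60:DDX60L) the EV and PRL3 libraries did not overlap. The two-sided exact permutation p was 0.1 each and 0.125 after adjustment over the 5 pairs. Of single protein-coding genes, 36.8% had every PRL3 library below every EV library and 22.1% above. The share among ratios of other gene pairs was not computed, so the 4 pairs give no result particular to helicases. The fifth, DDX5:DDX17, stayed at 2.54 ± 0.36 in EV and 2.46 ± 0.16 in PRL3 libraries (SD, n = 3 each, exact permutation p = 0.7).

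**Figure D3:**
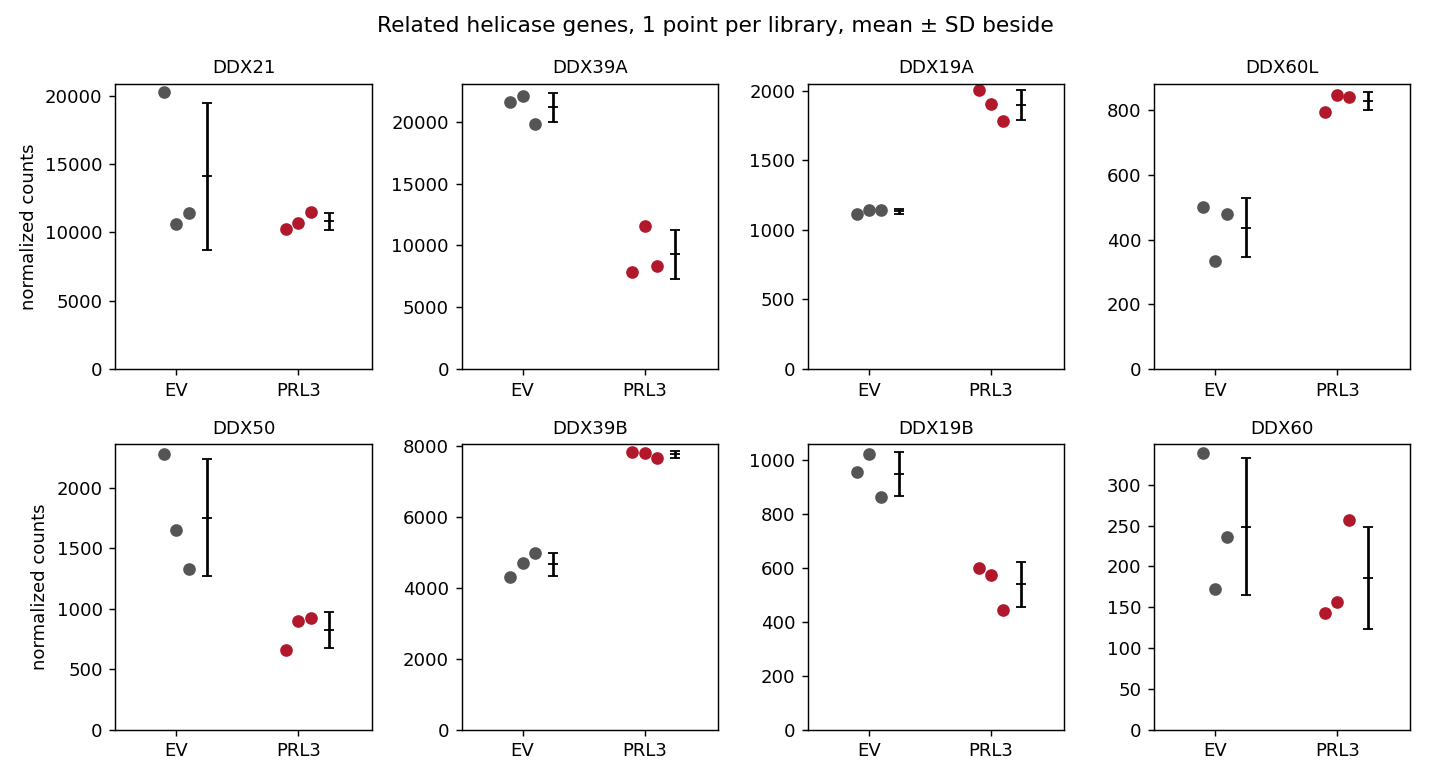
Normalized counts (vertical axis from 0) of 4 pairs of related helicase genes, upper and lower panel of each column, with 1 point per library in the order B1, B2, B3 (EV, grey) and B9, B10, B11 (PRL3, red) and the mean ± SD beside the points. In DDX21 1 EV library lies near 20318 and the other 5 libraries between 10262 and 11465, whereas DDX50, DDX39A and DDX19B are lower and DDX39B, DDX19A and DDX60L higher in every PRL3 library.

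Exons that genes share bear on these export genes, since a read on a shared exon was counted for neither gene. In GENCODE 44, 4 tested members shared at least 10% of their exon bases with another gene on the same strand: DDX47 (36.5%, with APOLD1), DDX39B (30.8%, mainly with a readthrough gene), DDX19A (23.9%) and DDX19B (16%), the last 2 with a readthrough gene that spans both. Of these 4, 3 were higher and 1 was lower. Of the other 46 members, 15 were lower and 3 higher. Among protein-coding genes, 23.9% of the 1182 genes with at least 10% shared bases were lower and 23.2% higher, against 32.3% and 14.5% of the other 13261. APOLD1 itself had a log2 fold change of 0.83 (edgeR adjusted p = 0.0227), and both readthrough genes had 0 counts in all 6 libraries, so counts of these 4 members are uncertain. The counts were made with Ensembl 91, in which these overlaps may differ from GENCODE 44. Their part in the result was not tested.

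No translation or decay helicase was called under TMM scaling, as 0 of 5 were lower and 0 were higher (log2 fold changes from −0.33 to 0.22). The shares among protein-coding genes were 31.6% lower and 15.2% higher. At an unadjusted p under 0.05 the count was also 0, and DESeq2 and limma-voom each called 0 of the 5. Among all 23884 genes tested, 12027 had an unadjusted edgeR p under 0.05. Under library size alone, however, 3 were higher (DDX3X, DDX6 and DHX36), and under all uniquely aligned reads 2 were lower (DHX29 and DHX34). Of all genes tested, 39.8% were higher under the former and 35.5% lower under the latter. DDX3X, an initiation factor helicase, had 29304, 18328 and 22305 normalized counts in EV and 19802, 23214 and 24325 in PRL3 libraries (log2 fold change −0.05, SE 0.18, edgeR adjusted p = 0.836). DDX6, a component of P-bodies that represses translation, had 9383, 6074 and 6475 in EV and 6693, 6737 and 8206 in PRL3 libraries (−0.02, SE 0.18, edgeR adjusted p = 0.943). In both genes the groups overlapped throughout.

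The other members of this role were more spread. DHX29, which helps the ribosome scan structured leaders, had 2213, 1213 and 1373 normalized counts in EV and 1246, 1186 and 1393 in PRL3 libraries (log2 fold change −0.33, edgeR adjusted p = 0.236). DHX34, a factor of nonsense-mediated decay, had 4261, 5819 and 4377 in EV and 4059, 4207 and 3660 in PRL3 libraries (−0.28, edgeR adjusted p = 0.184). DHX36, which resolves G-quadruplexes, had 4284, 2171 and 2699 in EV and 3205, 3245 and 4219 in PRL3 libraries (0.22, edgeR adjusted p = 0.455). The DHX34 libraries did not overlap, and the DHX29 and DHX36 libraries did.

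Of the 3 RNA-sensing helicases, all with low counts, 1 was lower and 1 higher. Among protein-coding genes 31.6% were lower and 15.2% higher. DHX58 (LGP2), a regulator of viral RNA receptors, had 468, 535 and 483 normalized counts in EV and 200, 258 and 244 in PRL3 libraries (log2 fold change −1.08, SE 0.22, edgeR adjusted p = 0.00137). DDX60L, an interferon-induced gene, had 501, 333 and 478 in EV and 797, 848 and 842 in PRL3 libraries (0.92, SE 0.20, edgeR adjusted p = 0.00234). Its neighbour and paralog DDX60 had 339, 172 and 236 in EV and 143, 156 and 257 in PRL3 libraries (−0.42, SE 0.32, edgeR adjusted p = 0.312). The first 2 genes did not overlap between the lines and DDX60 did. Of protein-coding genes, 36.8% had every PRL3 library below every EV library and 22.1% above. DDX60L was not called when scaled by all uniquely aligned reads. The ratio of DDX60 to DDX60L counts was 0.562 ± 0.10 in EV and 0.223 ± 0.071 in PRL3 libraries (SD, n = 3 each).

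Of the 2 mitochondrial helicases, DHX30, a protein of mitochondrial RNA granules, had 15170, 19997 and 16131 normalized counts in EV and 7207, 8420 and 7092 in PRL3 libraries (log2 fold change −1.17, SE 0.16, edgeR adjusted p = 8.1e-05). DDX28, which takes part in mitochondrial ribosome assembly, had 2592, 3012 and 3041 in EV and 2231, 2877 and 2457 in PRL3 libraries (−0.19, edgeR adjusted p = 0.344). DHX30 thus stood at 44.3% of its EV level, and the DDX28 libraries overlapped.

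Among 7 members with other roles, 3 were lower and 0 higher by edgeR, DESeq2 and limma-voom alike, with 1 higher at an unadjusted p under 0.05. Scaling by library size alone gave 2 lower and 3 higher, and all uniquely aligned reads gave 5 lower and 0 higher. Of all genes tested, 12.9% were lower and 39.8% higher under the former, and 35.5% and 8.17% under the latter. The rest of the counts here are from the reported fit. The 3 lower genes made up 42.9%, beside 31.6% of protein-coding genes, of which 15.2% were higher. DHX40 had a log2 fold change of −1.19 (edgeR adjusted p = 0.000806), DDX1, a subunit of the tRNA ligase complex, of −1.06 (edgeR adjusted p = 0.00102), and DHX32 of −0.80 (edgeR adjusted p = 0.00128). DHX9, a nuclear helicase of transcription and genome stability, had 32175, 22410 and 25005 normalized counts in EV and 29615, 29475 and 30964 in PRL3 libraries. EV B1 lay above all PRL3 libraries and the other two EV libraries below them (log2 fold change 0.18, SE 0.16, edgeR adjusted p = 0.41). DDX11, a DNA helicase of sister chromatid cohesion, lay at 0.32 (edgeR adjusted p = 0.0885), DHX57 at −0.23 and DDX59 at 0.03. Of the germline members only DDX25 was tested, with 4.87 to 17.3 normalized counts in EV and 8.23 to 13.9 in PRL3 libraries.

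EV B1 held a high value in many members. It exceeded 1.5 times the mean of EV B2 and EV B3 in 10 of the 50 tested members (20%), namely DDX1, DDX18, DDX21, DDX46, DDX50, DDX52, DDX60, DHX29, DHX36 and DHX40. This was so in 11.8% of protein-coding genes and 14.4% of all genes tested. Without EV B1, 15 members were lower and 9 higher, and the median log2 fold change of the members was −0.07. DDX1, DDX50 and DHX40 remained lower without it.

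Level and gene structure were set beside the fold changes as a description over genes that share libraries. Across the 50 tested members, Spearman's rho of the log2 fold change was 0.11 with gene length, 0.30 with exon length, −0.06 with the number of exons and 0.18 with the share of exon bases outside the canonical transcript. Over the 14443 protein-coding genes these were 0.30, 0.28, 0.05 and −0.09. Of 14 members under 20 kb, 6 were lower and 3 higher (median log2 fold change −0.28), and of 5075 protein-coding genes of that length 2306 were lower and 560 higher (median −0.51). Of 23 members of 40 kb and over, 8 were lower and 2 higher (median −0.22), and of 6551 protein-coding genes 1247 were lower and 1230 higher (median 0.05).

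**Figure D4:**
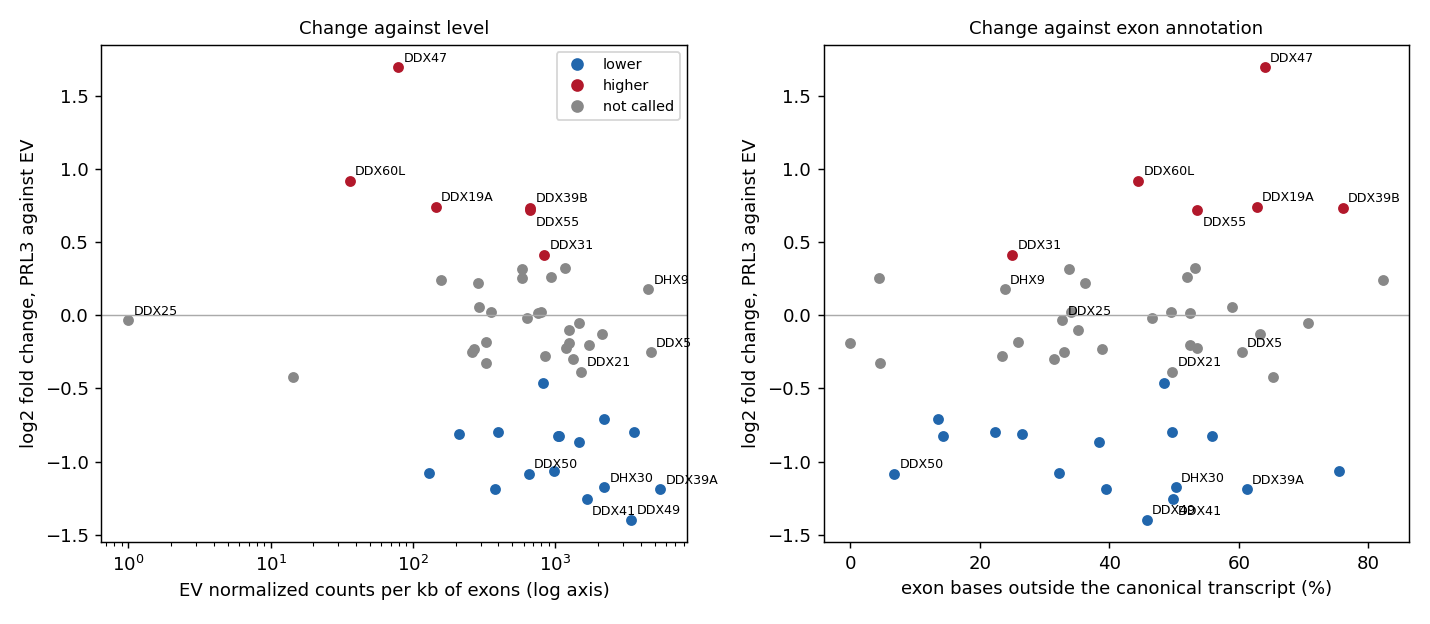
Log2 fold change in PRL3 against EV cells (vertical axis) of the 50 tested helicase genes, against EV normalized counts per kb of exons (left, log axis) and against the percentage of exon bases outside the canonical transcript of GENCODE 44 (right). Blue genes were lower, red higher and grey not called, and no gene with an EV level above that of DDX31 (841 counts per kb) was called higher.

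Of 11 related helicases with other symbols, 10 were tested, 3 were lower (30%) and 2 higher (20%), with a median log2 fold change of −0.12. The background of protein-coding genes was 31.6% lower and 15.2% higher. EIF4A3, the helicase of the exon junction complex, had 10066, 10058 and 8329 normalized counts in EV and 3361, 4567 and 4000 in PRL3 libraries (−1.25, edgeR adjusted p = 5.55e-05). SKIC2, of the cytoplasmic exosome's Ski complex, and SNRNP200, which unwinds snRNAs in the spliceosome, had −0.88 and −0.84 (edgeR adjusted p = 0.000667 and 0.000612). SNRNP200 was named after its values were seen.

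The initiation factor helicases EIF4A1 and EIF4A2 had log2 fold changes of 1.11 and 1.12 (edgeR adjusted p = 0.000931 and 0.00126). They share 47.4% and 10.5% of their exon bases with other genes, so these counts are uncertain too. The viral RNA receptors RIGI (0.47, edgeR adjusted p = 0.182) and IFIH1 (−0.13, edgeR adjusted p = 0.846), and DQX1 (0.90, edgeR adjusted p = 0.0706), were not called. RIGI shares 43.2% of its exon bases.

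Of 21 cofactors, proteins that bind helicases and switch them on or guide them, 4 were lower (19.0%) and 2 higher (9.52%), with a median log2 fold change of −0.15. Protein-coding genes were lower in 31.6% and higher in 15.2%. GPKOW, the partner of DHX16, had a log2 fold change of −1.10 (edgeR adjusted p = 0.000102), beside −0.83 for DHX16 itself. GLE1, which activates DDX19 at the nuclear pore, had −0.84 (edgeR adjusted p = 0.000488). CNOT1 and EDC3, partners of DDX6, had −0.46 and −0.43 (edgeR adjusted p = 0.0255 and 0.0416) and were named after their values were seen. CNOT1 missed the threshold in 4 and EDC3 in 5 of the 6 fits that leave out 1 library, and both turned above 0 under library size alone. GPATCH4 and GPATCH1, proteins with the G-patch that binds DEAH helicases, had 0.61 and 0.49 (edgeR adjusted p = 0.0142 and 0.0444). GPATCH1 missed the threshold in the DESeq2 test and without 5 of the 6 libraries, each left out in turn.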

How the data were processed

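4sU-labelled RNA was measured in 6 libraries of A375 cells (3 EV, 3 PRL3). Per the labels, reads were checked with FastQC 0.11.3, aligned to GRCh38 with STAR 2.5.1b and counted with HTSeq 0.6.1. The study's methods give Ensembl release 91 and strand-specific counting. The deposited values are whole-number counts per gene, not normalized. The rows for reads outside exons, on several genes or otherwise uncounted were kept out of library sizes and tests in the reported fit. The scaling by all uniquely aligned reads added reads outside exons and on several genes to the library sizes. Reads outside exons of the expected strand made up 28.7% to 69.1% of uniquely aligned reads.

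Of the 58243 identifiers, 57532 matched GENCODE 44, which gave symbols, gene type, coordinates (GRCh38) and exon lengths. Counts were filtered with filterByExpr and tested with the edgeR 4.0.16 quasi-likelihood test (TMM, R 4.3.3), with Benjamini-Hochberg adjustment over 23884 genes and a threshold of 0.05. To give normalized counts, each library was rescaled to the average TMM-adjusted library size. Levels are per kb of merged exons. Shares and ratios were compared by two-sided exact permutation tests (SciPy 1.17.1). Genes were named as follows: DDX21, DDX50, the 2 lowest and 2 highest of the ribosome, splicing and translation roles, all tested export, sensing and mitochondrial members, and DDX5, DDX17, DHX9, DDX3X, DDX6 and DHX15 with every library, the others by fold change. Of relatives and cofactors the 2 lowest and 2 highest were named, with EIF4A1, EIF4A2, EIF4A3, RIGI and IFIH1. Members, roles and lists were chosen with earlier results of these data known. Alternatives were DESeq2 1.42.0, limma-voom (limma 3.58.1), other scalings, other low-count filters, protein-coding genes only, an adjusted p of 0.01 and leaving out each library. The fit was tested on simulated data. Promoters came from RefSeq (GRCh38.p14).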

Additional observations from a re-analysis of the deposited data

Results flagged for a closer look

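Many uniquely aligned reads lay outside annotated exons of the expected strand. They entered the comparisons of genes only as part of the library size in the scaling by all uniquely aligned reads. They were more frequent in PRL3 than in EV libraries. Their mean share was 66.3% ± 3.18 in PRL3 and 33.3% ± 6.75 in EV libraries (SD, n = 3 each), with no overlap. These reads include any from introns of the helicase genes that no annotated exon covers, and any on exons but from the other strand. The counts on exons do not tell spliced from unspliced RNA.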

How the results depend on the processing

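No paired analysis was possible because the EV and PRL3 libraries share no replicate numbers. The count of lower members was 14 to 16 under RLE and upper-quartile scaling, DESeq2, limma-voom, both other low-count filters, the fit of protein-coding genes only and an adjusted p of 0.01, and the count of higher members was 5 to 10. Scaling moved these values most. Under all uniquely aligned reads, 32 members were lower and 1 higher, the members' median log2 fold change was −0.69 and that of DDX21 was −0.87, now past the threshold. Under library size alone, 8 were lower and 20 higher, with a median of 0.28 and DDX21 at 0.12. Upper-quartile scaling gave 10 higher members and a median of −0.029, and the fit of protein-coding genes only gave 10 and −0.030. Leaving out 1 library at a time gave 14 to 16 lower members, 5 to 9 higher, a median from −0.28 to −0.074 and a DDX21 log2 fold change from −0.54 to −0.03. The ratio of the PRL3 to the EV mean share of DDX21 ran from 0.871 to 1.10, above 1 only without EV B1, and that of the DDX21 to DDX50 ratio from 1.52 to 1.77. Among all genes tested, the share lower was 35.5% and the share higher 8.17% under all uniquely aligned reads, and 12.9% and 39.8% under library size alone.

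Single genes changed sign as follows, on the log2 scale. Under all uniquely aligned reads the values were DDX10 −0.24, DDX11 −0.15, DDX18 −0.22, DDX20 −0.42, DDX27 −0.47, DDX31 −0.064, DDX59 −0.46, DHX33 −0.23, DHX35 −0.17, DHX36 −0.26, DHX37 −0.46, DHX9 −0.30, RIGI −0.0067. Under library size alone they were DDX17 0.29, DDX21 0.12, DDX24 0.39, DDX25 0.43, DDX28 0.29, DDX3X 0.44, DDX42 0.27, DDX5 0.24, DDX51 0.31, DDX52 0.25, DDX6 0.48, DDX60 0.068, DHX15 0.36, DHX29 0.17, DHX34 0.22, DHX38 0.19, DHX57 0.27, DHX8 0.036, IFIH1 0.37, CNOT1 0.035, EDC3 0.063. Under protein-coding genes only they were DDX24 0.082, DDX25 0.13, DDX3X 0.13, DDX6 0.17, DHX15 0.054, IFIH1 0.053, and under upper-quartile scaling DDX24 0.084, DDX25 0.13, DDX3X 0.13, DDX6 0.17, DHX15 0.055, IFIH1 0.056. Under RLE scaling they were DDX27 −0.026, DDX59 −0.013, DHX37 −0.018, under DESeq2 DDX27 −0.026, DDX59 −0.013, DHX37 −0.018, under limma-voom DDX25 0.026, DDX6 0.0020, with at least 10 counts in every library DDX6 0.024 and with no filter beyond 1 count DDX6 0.0087. Over the 6 fits that leave out 1 library, the genes that changed sign ran over these ranges: DDX20 −0.085 to 0.25, DDX24 −0.16 to 0.00072, DDX25 −0.37 to 0.45, DDX27 −0.050 to 0.10, DDX3X −0.19 to 0.15, DDX52 −0.39 to 0.054, DDX59 −0.051 to 0.12, DDX6 −0.12 to 0.20, DHX15 −0.20 to 0.019, DHX37 −0.072 to 0.13, IFIH1 −0.33 to 0.050. Apart from DDX31, DHX8, CNOT1 and EDC3 none of these genes was called in the reported fit. The cause was not tested. Depth limits the germline member DDX25, with at most 19 counts in any library.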

Other observations

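A few antisense and divergent transcripts that carry the name of a helicase gene were also in the files. Of 6, 5 were tested, and 3 were higher in PRL3 cells by the edgeR quasi-likelihood test. DDX19A-DT, which starts beside DDX19A, had 19.5, 45.7 and 94.6 normalized counts in EV and 211, 104 and 167 in PRL3 libraries (log2 fold change 1.57, SE 0.49, edgeR adjusted p = 0.0201). DDX39B-AS1 had 20.7, 75.8 and 70.9 in EV and 154, 135 and 148 in PRL3 libraries (1.38, SE 0.44, edgeR adjusted p = 0.0216). DHX35-DT had 46.3, 153 and 156 in EV and 292, 214 and 280 in PRL3 libraries (1.14, SE 0.39, edgeR adjusted p = 0.0305). In all 3 the groups did not overlap and EV B1 was the lowest library. DDX11-AS1 (0.40, edgeR adjusted p = 0.267) and DDX59-AS1 (−0.34, edgeR adjusted p = 0.66) were not called. Among all genes tested, 20.0% were higher, and in 29.7% every PRL3 library lay above every EV library. These shares pool protein-coding and other genes. DDX19A and DDX39B, the sense partners, were higher too, and DHX35 was not called. The list was drawn up after the members' values were known, and the counting was by strand.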
